A study of Homo sapiens with 12 samples.

Results

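The early growth response factors EGR1, EGR2, EGR3 and EGR4 and their corepressors NAB1 and NAB2 were followed at the mRNA level in U-2932, an established human cell line from a diffuse large B cell lymphoma. The 6 genes were taken by their symbol on chromosomes 1 to 22 from a table of 60675 genes, and all 6 were found once each. The series asked how a form of Roquin2, an mRNA decay factor, with the Y691F substitution acts on mRNA levels when the B cell receptor is engaged. Strand-specific sequencing of polyA+ RNA gave 12 libraries in 4 groups of 3: Y691F cells given F(ab')2-IgM, WT cells given F(ab')2-IgM, untreated Y691F cells and untreated WT cells. All cells carried a stably expressed Roquin2, either the Y691F form or the wild-type form (WT), so there was no group without a construct. F(ab')2-IgM engages the B cell receptor and was used at 10 µg/ml for 12 h. The submitters describe the 3 libraries of each group as independent biological replicates, and the sources used here do not say whether each form stood in more than 1 independently made line. The Roquin2 form and other differences between the 2 sets of stable cells therefore cannot be told apart.

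EGR proteins are zinc finger transcription factors that bind a short GC-rich DNA element, and their genes are classic immediate early genes. In B cells, receptor signalling through the ERK kinases activates ternary complex factors and the serum response factor, SRF, which sit on CArG boxes of EGR promoters. NAB1 and NAB2 have no DNA-binding domain of their own. They dock on EGR1, EGR2 and EGR3 and bring in the NuRD chromatin-remodelling complex, and since NAB2 is itself an EGR-induced gene, the pair forms a negative feedback loop.

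The libraries held 16465393 to 21478790 counts. RC3H2, the gene of Roquin2, gave 204 to 209 CPM (counts scaled to TMM-adjusted library size) in the 6 Y691F libraries and 109 to 123 CPM in the 6 WT libraries, and the sources used here do not say whether construct reads were counted there. All 8 B cell markers examined were detected, and their summed level was 2264 to 2307 CPM in Y691F with IgM and 2282 to 2324 CPM in WT with IgM, against 3045 to 3085 CPM in untreated Y691F and 3452 to 3498 CPM in untreated WT. Of the 7 T cell markers, CD2 and CD3D had no count in any library, and the summed level of the list was 5.56 to 6.34 CPM in Y691F with IgM, 4.43 to 4.78 CPM in WT with IgM, 11.5 to 12.1 CPM in untreated Y691F and 13.4 to 14.4 CPM in untreated WT. The 7 myeloid markers summed to at most 1.71 CPM, and the 8 fibroblast and epithelial markers, with CDH1 at 0 throughout, to between 19.5 and 26.8 CPM. The part of these marker levels in the results below was not tested. As in any bulk measurement, fewer cells expressing a gene and less of its mRNA per cell cannot be told apart.

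The upstream sequences were read for motifs of the signal and of the EGR proteins. RefSeq transcript starts (GRCh38.p14) were used for 5 of the 6 genes, with 9 start sites in all, and the 250 bases before each start were searched on both strands. EGR3 was the gene left out, so its upstream sequence was not read for any motif. EGR1 had 2 CArG boxes, the SRF-binding motif (CC, then 6 bases of A or T, then GG), at 105 to 96 and 83 to 74 bases before its start. EGR2 had 1, before the third of its 3 listed starts, and the other 7 windows had none. Of all 35116 listed promoter windows, 1.16% held a CArG box in a window of this length. Both CArG-bearing windows also held 2 copies of CGTCA, the core of the cAMP response element, which occurred in 21.2% of promoters, while the full element TGACGTCA, found in 1.65%, was in none of the 9 windows. The windows of EGR1 (plus strand, chr5:138465229-138465478) and of the third EGR2 start (minus strand, chr10:62816367-62816616) are shown 5′ to 3′ because these 2 genes carry the CArG boxes. Capitals mark the CArG boxes and the CGTCA cores, on either strand.
EGR1: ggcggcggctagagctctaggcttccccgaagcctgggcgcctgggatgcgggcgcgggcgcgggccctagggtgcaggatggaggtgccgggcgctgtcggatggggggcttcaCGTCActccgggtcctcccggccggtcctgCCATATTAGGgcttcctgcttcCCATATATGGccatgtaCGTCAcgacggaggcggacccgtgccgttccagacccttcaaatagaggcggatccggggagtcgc
EGR2: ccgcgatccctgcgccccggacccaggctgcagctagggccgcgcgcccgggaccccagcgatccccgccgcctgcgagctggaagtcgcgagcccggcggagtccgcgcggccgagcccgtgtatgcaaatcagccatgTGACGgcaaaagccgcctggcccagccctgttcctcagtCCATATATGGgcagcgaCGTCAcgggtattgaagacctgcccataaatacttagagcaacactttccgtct

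The element bound by the EGR proteins themselves, GCGNGGGCG on either strand, was found before RefSeq starts of EGR1, NAB1 and NAB2 and in 8.41% of all promoters. NAB1 held 2 overlapping copies 42 to 28 bases before its first start, with a further copy downstream that lay 175 to 167 bases before its second start. NAB2 held 1 copy 62 to 54 bases before its RefSeq start. The NAB1 and NAB2 sites, and the CArG box of EGR2, lie inside the gene bounds given below for these genes. They are upstream only of the RefSeq starts used. A match is only a run of letters, and binding was not measured. The sites are shown because they match the element that EGR proteins bind, with the element in capitals and 7 bases on each side, for NAB1 at chr2:190648846-190648874 and chr2:190648901-190648923, for NAB2 at chr12:57089045-57089067 and for EGR1 at chr5:138465274-138465296, all on the plus strand.
NAB1, first start: cagcggcCGCCCCCGCCCCCGCccggcgg
NAB1, second start: cggccgcGCGTGGGCGggagccg
NAB2: gcgtcctGCGGGGGCGgaggcgc
EGR1: gatgcggGCGCGGGCGcgggccc

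**Figure D1:**
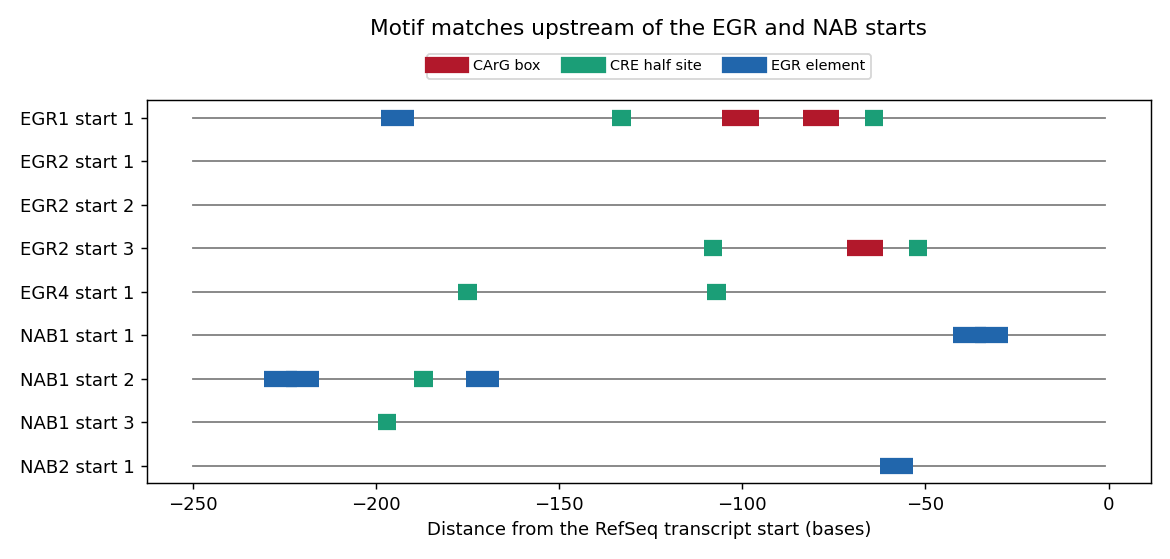
Position of motif matches in the 250 bases before each RefSeq start used, for 5 of the 6 genes; the x axis is the distance from the start in bases and each grey line is 1 window. Among the windows searched, CArG boxes lie only before EGR1 and the third EGR2 start, and EGR elements before EGR1, NAB1 and NAB2. EGR3 was not searched.

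EGR1, the archetype of the family (ENSG00000120738, GRCh38 chromosome 5, 138465490 to 138469315, plus strand), was the member that differed most firmly between the Roquin2 forms. With IgM it stood at 343, 337 and 322 CPM in the 3 Y691F libraries and at 725, 702 and 720 CPM in the 3 WT libraries. Without IgM it stood at 20.4, 17.8 and 16.3 CPM in Y691F and at 8.06, 7.08 and 7.17 CPM in WT. The groups did not overlap in either condition, and their order turned round: Y691F was the higher form at rest and the lower one after IgM. EGR1 was lower in Y691F with IgM by a log2 change of -1.10 (SE 0.03, 2.14-fold, edgeR adjusted p = 1.32e-47) and higher in untreated Y691F by 1.29 (SE 0.08, 2.45-fold, adjusted p = 2.42e-24). IgM raised it 18.3-fold in Y691F (log2 4.197, SE 0.04, adjusted p = 9.64e-79) and 96.4-fold in WT (log2 6.59, SE 0.05, adjusted p = 1.19e-89). Among all 15112 tested genes the WT response was the fifth smallest p-value. The response in Y691F differed from that in WT by a log2 value of -2.39, a 5.25-fold smaller induction (SE 0.08, adjusted p = 4.27e-39). From high to low, the EGR1 levels ran WT with IgM, Y691F with IgM, Y691F untreated and WT untreated, and each neighbouring pair was separated in every library.

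EGR2 (ENSG00000122877, chromosome 10, 62811996 to 62919900, minus strand), which in lymphocytes is known both as an activation gene and as a restraint on activation, was the only member higher in Y691F with IgM. It had 48.5, 49.3 and 51.3 CPM in the 3 Y691F libraries with IgM, against 44.2, 43.8 and 43.7 CPM in the 3 WT libraries with IgM. Untreated, the values were 2.25, 2.95 and 3.32 CPM in Y691F and 1.11, 1.65 and 1.43 CPM in WT. Y691F libraries lay above WT libraries in both conditions, by a small margin with IgM and a larger one without. The log2 difference with IgM was 0.18 (SE 0.05, 1.13-fold, adjusted p = 0.00423), a size that 48.4% of all tested genes did not reach. Untreated, it was 0.997 (SE 0.18, 1.996-fold, adjusted p = 6.78e-06). IgM raised EGR2 17.5-fold in Y691F (log2 4.13, SE 0.09, adjusted p = 2.11e-59) and 31.0-fold in WT (log2 4.95, SE 0.10, adjusted p = 1.09e-59), and the difference of these responses was -0.82 (SE 0.19, adjusted p = 5.16e-04). The EGR2 order was Y691F with IgM, WT with IgM, Y691F untreated and WT untreated, so here the forms kept their order through stimulation.

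EGR3 (ENSG00000179388, chromosome 8, 22687659 to 22693302, minus strand), a close relative of EGR2 that overlaps with it in function in lymphocytes, showed the turned order of EGR1. With IgM it had 23.0, 21.8 and 19.0 CPM in Y691F and 28.8, 30.3 and 34.1 CPM in WT. Untreated, it had 5.15, 4.97 and 5.09 CPM in Y691F and 1.59, 1.07 and 1.43 CPM in WT. No library of one form overlapped with the other form in either condition. EGR3 was lower in Y691F with IgM by -0.54 (SE 0.07, 1.45-fold, adjusted p = 2.04e-10) and higher in untreated Y691F by 1.91 (SE 0.17, 3.76-fold, adjusted p = 1.50e-16), the largest resting difference among the members. IgM raised it 4.203-fold in Y691F (log2 2.07, SE 0.09, adjusted p = 5.91e-35) and 22.9-fold in WT (log2 4.52, SE 0.12, adjusted p = 2.20e-52). The response in Y691F differed from that in WT by -2.45 on the log2 scale (SE 0.18, adjusted p = 3.54e-20), close in size to that of EGR1. A gene annotated on the plus strand that overlaps EGR3 by 3153 bases had no counts in any library.

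EGR4 (ENSG00000135625, chromosome 2, 73290929 to 73293705, minus strand), the family member without a NAB-docking domain, was barely expressed. It had 1, 11 and 11 counts in the 3 Y691F libraries with IgM and 24, 22 and 16 counts in the 3 WT libraries with IgM. Untreated, it had 1, 0 and 2 counts in Y691F and 3, 0 and 0 counts in WT. The Y691F libraries with IgM were all below the WT libraries with IgM, and Y691F replicate 1, with 1 count, lay within the untreated range. EGR4 passed the filter on low counts only through the IgM groups, where 2 of 3 Y691F libraries and 3 of 3 WT libraries reached 0.540 CPM, so its IgM calls were bound to arise. The summed counts gave an IgM ratio of 8.91 in Y691F (95% exact binomial interval 2.69 to 46.4, 23 against 3 counts) and of 23.9 in WT (7.79 to 119, 62 against 3 counts). These intervals cover counting error only, since reads are not independent molecules. All 3 counts of untreated WT lay in replicate 1, without which the WT rise was at least 16.2-fold, computed against 3 counts over the group; without untreated WT replicate 2 the ratio was 14.7. Without untreated Y691F replicate 3 the Y691F ratio was 18.0 (2.93 to 742). Y691F with IgM was lower than WT with IgM by a log2 change of -1.46 (SE 0.39, edgeR adjusted p = 0.00135), a call that the DESeq2 Wald test did not make (-1.44, adjusted p = 0.205). Without Y691F replicate 1 with IgM it was -0.91 (adjusted p = 0.0480). WT with IgM, the higher group, was also the only one with 3 of 3 libraries past the filter. The edgeR call between the forms is therefore not independent of the filter and is given as a description. The untreated groups had 3 counts each, too few for a fold, and no count in a library allows up to 0.134 to 0.172 CPM.

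**Figure D2:**
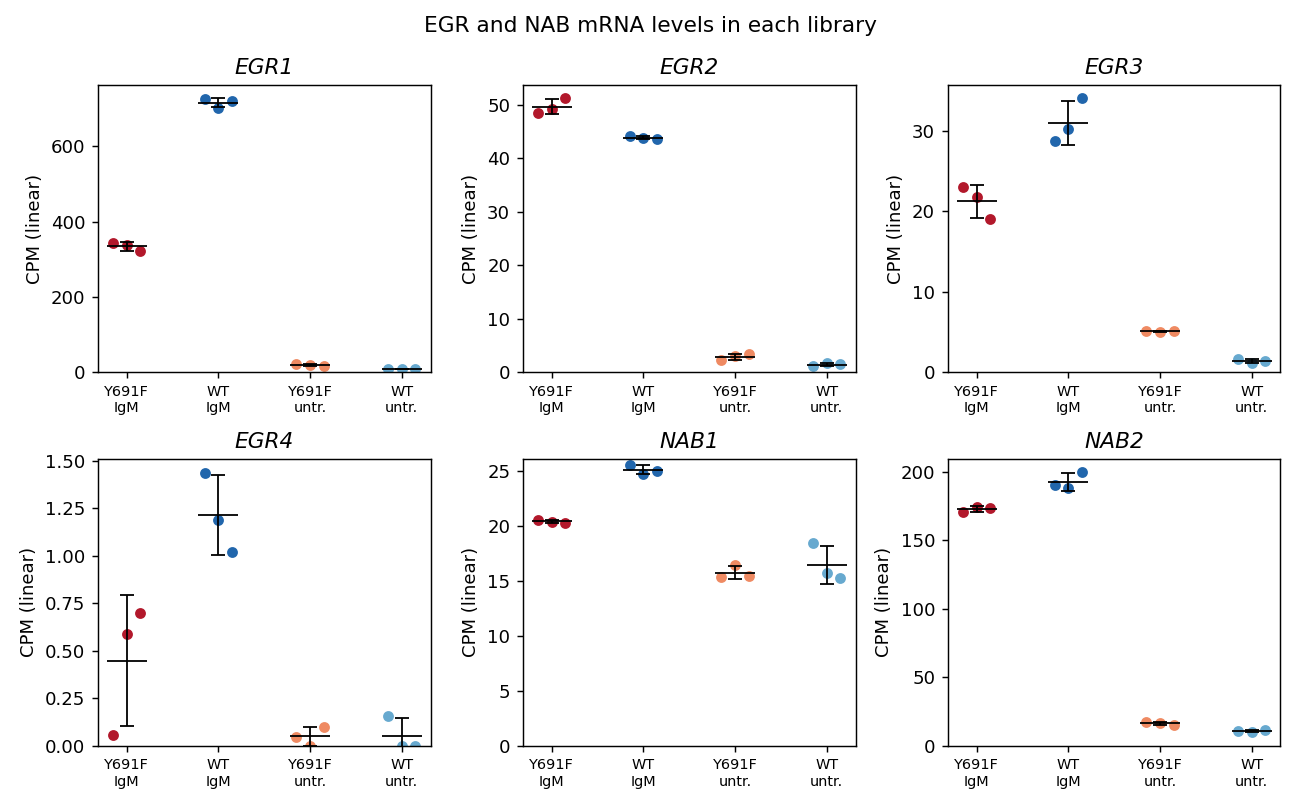
Level of each member in CPM (linear axis from 0) in the 12 libraries; points are libraries, the long bar is the group mean and the whiskers are ± 1 SD (n = 3). For EGR1 the Y691F libraries with IgM, at 322 to 343 CPM, lie below the WT libraries with IgM, at 702 to 725 CPM, whereas for EGR2 the Y691F libraries are the higher ones.

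NAB2 (ENSG00000166886, chromosome 12, 57088894 to 57095476, plus strand), the inducible corepressor, rose with IgM on a scale near that of the EGR genes, but differed little between the forms once stimulated. With IgM it had 170.3, 174.5 and 173.5 CPM in Y691F and 190.1, 187.9 and 200.0 CPM in WT. Untreated, the levels were 17.3, 16.6 and 15.1 CPM in Y691F and 10.9, 10.1 and 11.2 CPM in WT. The groups were apart in both conditions, and the order of the forms turned as for EGR1 and EGR3, with a much smaller step. The log2 difference with IgM was -0.16 (SE 0.03, 1.115-fold lower in Y691F, adjusted p = 7.085e-05), and the untreated one was 0.62 (SE 0.07, 1.53-fold, adjusted p = 4.60e-11). IgM raised NAB2 10.6-fold in Y691F (log2 3.40, SE 0.05, adjusted p = 6.74e-73) and 18.0-fold in WT (log2 4.17, SE 0.05, adjusted p = 3.12e-77), a difference of -0.77 (SE 0.08, adjusted p = 5.44e-13). The last 69 bases of NAB2 overlap STAT6 on the opposite strand, which had 7259 to 9496 counts per library. The sources used here do not say whether counting used strand, and the part of STAT6 reads in the NAB2 counts was not tested.

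NAB1 (ENSG00000138386, chromosome 2, 190646746 to 190692766, plus strand), the more constitutive corepressor, rose least with IgM. With IgM it had 20.5, 20.4 and 20.3 CPM in Y691F and 25.6, 24.7 and 25.0 CPM in WT. Untreated, it had 15.4, 16.5 and 15.4 CPM in Y691F and 18.4, 15.7 and 15.3 CPM in WT. The forms were apart with IgM and overlapped without it. NAB1 was lower in Y691F with IgM by -0.30 (SE 0.07, adjusted p = 1.68e-04), and no difference was called in untreated cells (-0.065, 95% interval -0.21 to 0.078, adjusted p = 0.551). IgM raised it 1.30-fold in Y691F (log2 0.37, SE 0.07, adjusted p = 2.82e-06) and 1.52-fold in WT (log2 0.61, SE 0.07, adjusted p = 7.15e-13). The difference of the responses was not called (-0.23, SE 0.10, adjusted p = 0.0768), a result that passed the threshold in 3 of the alternatives tried, among them the fit without untreated WT replicate 1 (-0.32, adjusted p = 0.0163).

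Counted by comparison, the members were read against all tested genes. The members were chosen with earlier results of these data known, so the counts describe them and do not test them as a set. EGR4, which entered the test only through its level with IgM, is left out of these counts. With IgM, the 5 other members all differed between Y691F and WT, 4 of them lower in Y691F, in a comparison where 42.1% of all tested genes were called and 20.2% were called lower. Their median change was -0.30, against -0.0049 over all tested genes. In untreated cells 4 of the 5 were higher in Y691F and 1 was not called, where 31.2% of genes were called and 15.1% called higher, and their median was 0.997 against -0.0078. All 5 rose with IgM in Y691F (75.8% of genes called, 37.1% called higher) and in WT (76.9% called, 38.4% called higher), so a call by itself says little there. By size, the IgM rises of EGR1, EGR2 and NAB2 exceeded 98.3% to 99.7% of all tested changes in both forms, EGR3 exceeded 93.9% in Y691F and 98.9% in WT, while NAB1 exceeded 40.2% in Y691F and 56.7% in WT. For the difference of the responses, 4 of the 5 were called, all smaller in Y691F, beside 25.7% of genes called and 11.0% called lower. The comparisons share libraries, so their results are not independent of one another.

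**Figure D3:**
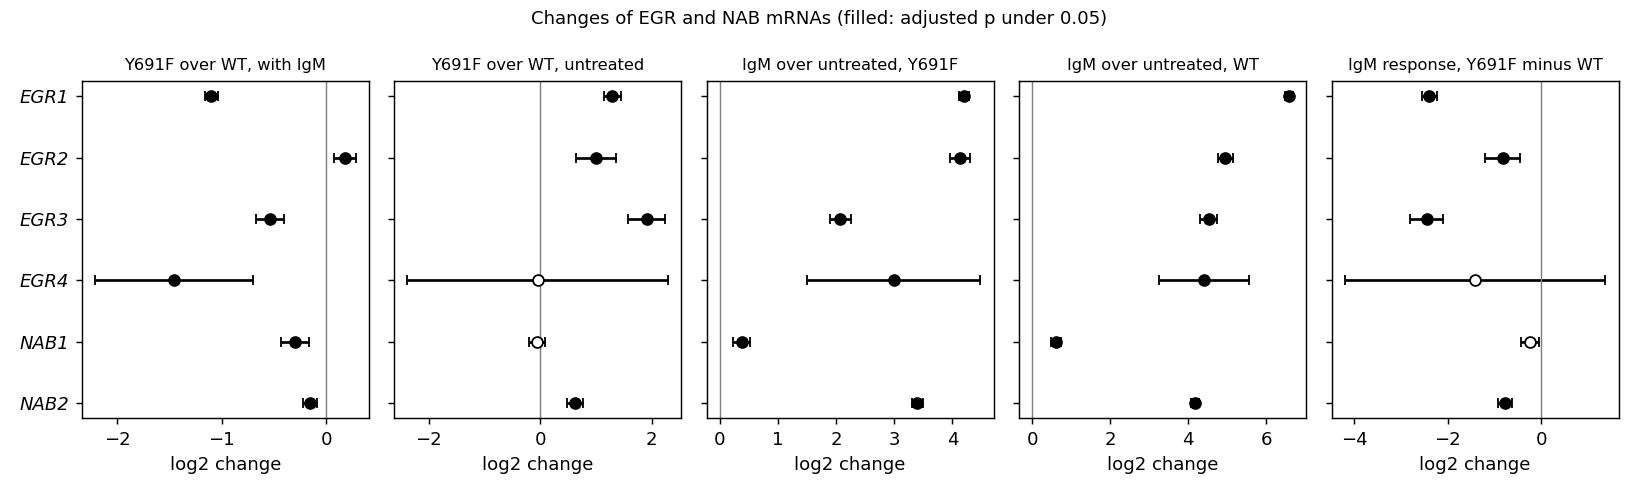
Log2 change of each member in the 5 comparisons, 1 panel each with its own x axis; points are edgeR estimates, bars the approximate 95% interval, and filled points have an adjusted p under 0.05. In the first panel EGR2 lies right of 0 at 0.18 and the other 5 members lie left of it; in the last panel EGR1 at -2.39 and EGR3 at -2.45 lie far to the left of EGR2 and NAB2. EGR4 passed the filter only through the IgM groups, so its filled points are not independent of the filter.

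Levels were compared between genes on the deposited RPKM scale, which divides by gene length. EGR1 made up most of the EGR mRNA in every group. Its share of the summed EGR RPKM was 85.0% to 85.9% in Y691F with IgM and 92.2% to 92.6% in WT with IgM. EGR2 took 10.3% to 11.5% in Y691F with IgM and 4.76% to 4.90% in WT with IgM. The stimulated forms therefore did not overlap in the make-up of this pool. In untreated cells EGR1 held 72.3% to 79.3% in Y691F and 77.0% to 78.7% in WT, which overlapped, and EGR3 held 12.96% to 14.6% in Y691F and 7.53% to 10.0% in WT. EGR1 was 7.39 to 8.31 times as abundant as EGR2 per length in Y691F with IgM, and 18.8 to 19.4 times in WT with IgM. The log2 ratio of EGR1 to EGR2 was 2.98 ± 0.09 in Y691F and 4.26 ± 0.02 in WT with IgM (SD, n = 3, exact 2-sided permutation p = 0.1, the smallest that 3 against 3 libraries can give).

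The balance of activators to corepressors was read as summed EGR RPKM over summed NAB RPKM within each library, a measure that does not depend on library scaling. It was 2.09, 2.02 and 1.95 in Y691F with IgM and 3.65, 3.59 and 3.48 in WT with IgM. Untreated, it was 0.919, 0.843 and 0.880 in Y691F and 0.441, 0.446 and 0.434 in WT. EGR mRNA thus stood below NAB mRNA in all 6 untreated libraries and above it in all 6 stimulated ones, and the spread within a group was small beside the gap between forms. On the log2 scale Y691F differed from WT by -0.82 with IgM and by 0.9997 untreated, and IgM moved the ratio by 1.20 in Y691F and by 3.02 in WT. Each of these 4 comparisons had an exact 2-sided permutation p of 0.1, the smallest possible with 3 against 3. Within the NAB pair, NAB2 was 13.5 to 13.9 times NAB1 per length in Y691F with IgM and 12.1 to 12.99 times in WT with IgM. In untreated cells this ratio was 1.59 to 1.83 in Y691F and 0.961 to 1.19 in WT. NAB2 was thus the main NAB mRNA after stimulation in both forms, and close to NAB1 in untreated WT.

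**Figure D4:**
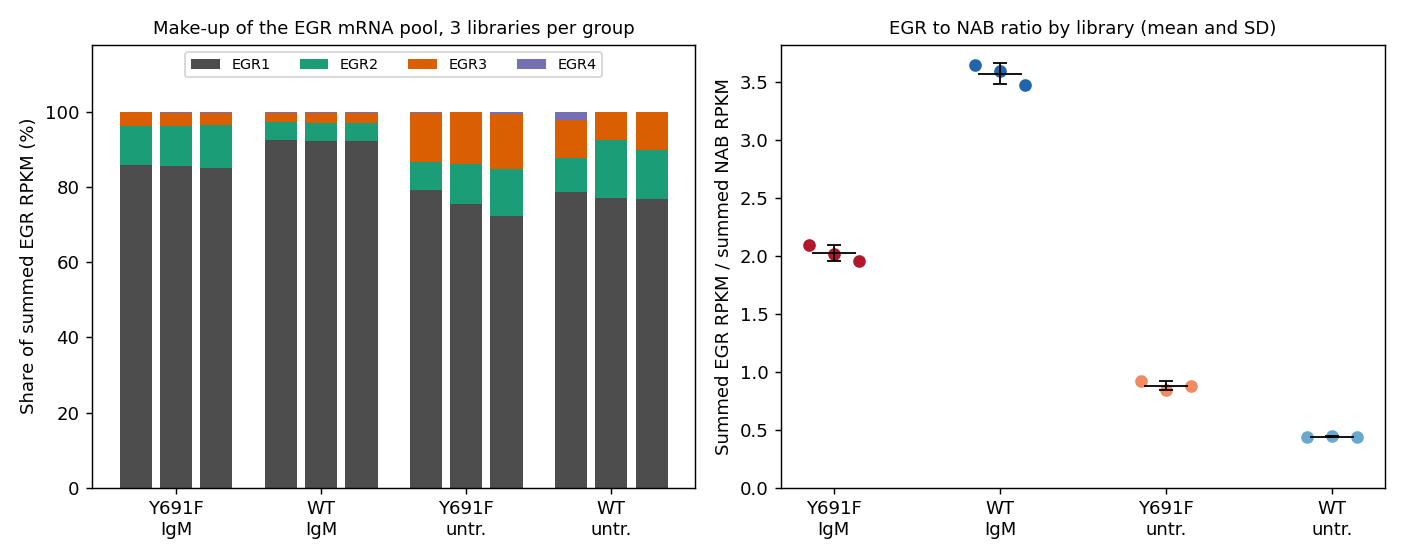
Left, share in percent of the summed EGR RPKM held by each EGR gene, 1 bar per library (replicates 1 to 3 from left to right in each group); right, summed EGR RPKM over summed NAB RPKM, with points for libraries, a bar for the mean and whiskers for ± 1 SD (n = 3). EGR2 takes 10.3% to 11.5% in Y691F with IgM against 4.76% to 4.90% in WT with IgM, and the EGR to NAB ratio is 1.95 to 2.09 against 3.48 to 3.65.

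The genes around the members were counted over 4 lists. These lists too were chosen with earlier results of these data known, so their counts are given as a description. The ERK to SRF arm, 15 genes from the RAF kinases to SRF, its coactivators and CREB1 that carry the signal to EGR promoters, counted 3 higher and 3 lower in Y691F with IgM (median -0.056, against -0.0049 over all tested genes, of which 42.1% were called), a share close to that of all genes. Those with the smallest p were the kinase gene MAP2K2, with 295 ± 5.11 CPM in Y691F cells and 254 ± 7.34 CPM in WT cells (log2 0.22, adjusted p = 1.004e-08), and the ternary complex factor gene ELK3, with 19.9 ± 0.923 CPM in Y691F cells and 14.4 ± 0.579 CPM in WT cells (log2 0.46, adjusted p = 1.66e-07). In untreated cells the arm counted 0 higher and 5 lower in Y691F (median -0.036, 31.2% of all genes called), led by the ERK-activated kinase gene RPS6KA1 (log2 -0.36, adjusted p = 1.72e-16). IgM gave 8 higher and 4 lower in Y691F (median 0.26, 75.8% of all genes called) and 8 higher and 5 lower in WT (median 0.22, 76.9% of all genes called). Among them RPS6KA1 fell by 0.83 in Y691F and by 1.37 in WT, and its sister gene RPS6KA3 rose by 0.86 in Y691F and by 0.93 in WT on the log2 scale. The difference of the responses was called for 4 genes upward and 1 downward of the 15, beside 25.7% of all genes, with ELK3 at 0.81 (adjusted p = 6.55e-11).

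The NuRD complex, which NAB proteins recruit, was 3 higher and 7 lower of 13 genes in Y691F with IgM (median -0.079), where 42.1% of all genes were called. The deacetylase gene HDAC1 had 123 ± 5.20 CPM in Y691F cells and 146 ± 1.497 CPM in WT cells (log2 -0.25, adjusted p = 3.88e-09). Untreated, it was 0 higher and 7 lower in Y691F (median -0.093), where 31.2% of all genes were called, with HDAC1 at -0.32. IgM changed 6 upward and 7 downward in Y691F (median -0.15) and 5 upward and 7 downward in WT (median -0.12), in comparisons that called 75.8% and 76.9% of all genes. MTA3, a subunit gene known from germinal center B cells, was lower after IgM, at 25.9 ± 2.76 CPM with IgM and 104 ± 2.499 CPM untreated in Y691F (log2 -2.003, adjusted p = 1.13e-54). In WT it was at 29.3 ± 0.4997 CPM with IgM and 126 ± 2.03 CPM untreated (log2 -2.11, adjusted p = 1.40e-57). The responses differed for 4 of the 13 NuRD genes, 3 upward and 1 downward, beside 25.7% of all genes.

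Of 21 genes reported in other cells as EGR targets, 16 passed the filter. In stimulated Y691F cells 9 were called higher and 5 lower than in WT (median 0.23), where 42.1% of all genes were called and 20.2% called lower. TNF, an inflammatory cytokine gene, had 24.7 ± 1.69 CPM in Y691F and 63.8 ± 1.35 CPM in WT with IgM (log2 -1.36, adjusted p = 6.28e-38), and 42.7 ± 1.91 CPM in Y691F and 26.9 ± 1.49 CPM in WT untreated (log2 0.66, adjusted p = 1.71e-18). The order of the forms thus turned with IgM as for EGR1, and the responses differed by -2.03 (SE 0.08, adjusted p = 1.28e-38), with a fall by 0.79 in Y691F and a rise of 1.24 in WT on the log2 scale. VEGFA, an angiogenic factor gene, had 122 ± 7.33 CPM in Y691F and 294 ± 4.88 CPM in WT with IgM (log2 -1.26, adjusted p = 2.43e-49). In untreated cells the list was 6 higher and 3 lower in Y691F (median 0.10, 31.2% of all genes called), and VEGFA was again lower there (log2 -1.91). Unlike that of TNF, the VEGFA response was larger in Y691F than in WT, by 0.65 on the log2 scale (SE 0.07, adjusted p = 3.46e-12). With IgM 11 rose and 5 fell in Y691F (median 0.97), and 10 rose and 5 fell in WT (median 0.998), beside 75.8% and 76.9% of all genes called. ID3, an inhibitor of E proteins, had 237 ± 16.0 CPM with IgM and 50.8 ± 0.960 CPM untreated in Y691F, and 257 ± 2.55 CPM with IgM and 40.1 ± 2.80 CPM untreated in WT. The responses of CD44, an adhesion receptor gene, differed by -0.54 (adjusted p = 2.55e-14), with 161 ± 4.01 CPM in Y691F and 180.4 ± 2.15 CPM in WT with IgM, and 72.0 ± 3.02 CPM in Y691F and 55.6 ± 1.20 CPM in WT untreated. In all, the responses of 4 target genes were called larger and of 4 smaller in Y691F, beside 25.7% of all genes called.

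Other immediate early genes, 22 tested of 24, were counted in the same way, again as a description of a list chosen with earlier results known. In Y691F 19 rose with IgM and 2 fell (median 2.08), where 37.1% of all genes were called higher, and in WT all 22 rose (median 2.45), where 38.4% were called higher. The response was called smaller in Y691F for 14 and larger for 0 of the 22 (median -0.47), where 11.0% of all genes were called smaller, with NR4A3, an orphan nuclear receptor gene, at -1.90 (adjusted p = 3.05e-23) and the phosphatase gene DUSP2 at -1.47 (adjusted p = 1.54e-19). With IgM 4 had a higher and 13 a lower level in Y691F (median -0.21, 20.2% of all genes called lower), and in untreated cells 10 had a higher and 4 a lower level (median 0.21, 15.1% of all genes called higher). NR4A1 was among the exceptions with IgM, averaging 1214 ± 24.2 CPM in Y691F cells and 737 ± 34.9 CPM in WT (log2 0.72, adjusted p = 1.01e-35), as EGR2 was among the members.

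The genes whose levels ran most like each member over the 12 libraries were found by Pearson correlation of log2 CPM among 8650 genes. All libraries share the wide gap between untreated and IgM cells, so values near 1 are common and are given as a description. For EGR1 they were SLAMF7 (r = 0.999), BCL2 (0.999) and CCL3L3 (0.998), a multi-copy chemokine gene whose reads its copies can share. SLAMF7 had the turned order of EGR1, with a mean of 591 CPM in Y691F and 1019 CPM in WT given IgM, and 47.5 CPM in Y691F and 20.9 CPM in WT untreated. For EGR2 they were SNX5 (0.998), the checkpoint receptor gene PDCD1 (0.998) and SEC24A (0.9975), and PDCD1 averaged 25.95 CPM in Y691F and 25.97 CPM in WT given IgM, and 0.449 CPM in Y691F and 0.0813 CPM in WT untreated. For EGR3 they were LITAF (0.992), SLC7A1 (0.992) and CCL4L2 (0.991), which also has a near-identical copy. NAB2 ran closest to the mRNA decay factor gene ZFP36L1 (0.999), SQSTM1 (0.999) and ID3 (0.999). NAB1 ran with SYDE2 (0.990), C1orf52 (0.983) and RPL10A (0.981), and EGR4 with TMEM167B (0.979), TMED4 (0.950) and NDUFAF1 (0.946).

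Among the members themselves, EGR1, EGR2, EGR3 and NAB2 correlated at r of 0.956 to 0.993 over the 12 libraries. NAB1 gave 0.840 to 0.913 with these 4, and EGR4, with its low counts, 0.790 to 0.851. The same gap between stimulated and untreated cells runs through these values, and they are given as a description.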

How the data were processed

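Gene counts and RPKM values came from 1 table deposited by the authors with all 12 libraries. Per the submitters' processing notes, STAR 2.5.0b, DESeq2 and GRCh38 were used, in roles not given; the read counter, its strand setting and the annotation release are not stated there. RPKM values, as deposited by the authors, divide reads by gene length and depth, and the lengths used are not stated. Counts were tested with edgeR 4.0.16 (R 4.3.3; TMM scaling, filterByExpr, robust quasi-likelihood F test, 4 group means in 1 fit), which left 15112 of 60675 genes. P-values were adjusted by Benjamini-Hochberg over all tested genes and called under 0.05; SE is the log2 change over the root of F. The common variation between replicates was 2.51%. Averaged over genes, the squared deviation between 2 libraries of a group was 1.43 to 2.41 times that of counting error. The SE and p-values measure this small spread among the libraries, and not a spread among independently made lines. limma 3.58.1 and DESeq2 1.42.0 served as alternatives. Ratios of RPKM were compared by exact permutation; those of EGR1 to EGR2 were added after seeing the data. All members were named; from each gene list up to 3 called genes per comparison with the smallest adjusted p; and per member the 3 most correlated genes of at least 5 CPM. Members and lists were chosen with earlier results of these data known. Simulated counts with a larger spread between replicates than here served as a check of the test. It recovered 86% of simulated log2 changes of -1 and 79.6% of those of 1. Because the spread differed, these shares do not describe the present data.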

Additional observations from a re-analysis of the deposited data

Results flagged for a closer look

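The IgM response differed between the Roquin2 forms for 4 of 5 genes by a test of the difference itself (edgeR, Y691F minus WT). EGR4, which entered the test only through its level with IgM, is not counted. In this comparison 25.7% of all tested genes were called and 11.0% were called lower. The response was smaller in Y691F for EGR1, at a log2 difference of -2.39 (SE 0.08, adjusted p = 4.27e-39), and for EGR3, at -2.45 (SE 0.18, adjusted p = 3.54e-20). It was also smaller for EGR2, at -0.82 (SE 0.19, adjusted p = 5.16e-04), and for NAB2, at -0.77 (SE 0.08, adjusted p = 5.44e-13). Both the starting and the stimulated level enter this difference. In untreated cells Y691F against WT was 1.29 for EGR1, 1.91 for EGR3, 0.997 for EGR2 and 0.62 for NAB2 on the log2 scale. With IgM the same comparison gave -1.10 for EGR1, -0.54 for EGR3 and -0.16 for NAB2, but 0.18 for EGR2. For all 4 genes the untreated difference was the larger in size, and for EGR2 the stimulated level was higher in Y691F.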

How the results depend on the processing

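Of 226 log2 changes of members from alternatives that kept all libraries, 222 kept direction and side of the threshold, and of 360 that left out 1 library, 355 did. The sign changed in 5 of them, all for differences between untreated Y691F and WT that were not called in any fit. EGR4, with 3 counts per untreated group, was -0.046, but 0.31 with limma-voom, and leaving out 1 library gave -0.89 to 3.05, above 0 without untreated Y691F replicate 1 (0.0013) or 2 (0.45) and without untreated WT replicate 1 (3.05). NAB1 was -0.065 and ran from -0.11 to 0.020, above 0 without untreated WT replicate 1. The difference of the NAB1 responses passed the threshold when scaling used only library totals (-0.27, adjusted p = 0.0358) and under a filter of at least 5 CPM in 3 libraries (-0.24, adjusted p = 0.0476). Leaving out 1 library gave -0.32 to -0.19 for it, and it passed without untreated WT replicate 1 (-0.32, adjusted p = 0.0163). EGR4 in Y691F against WT with IgM was not called by the DESeq2 Wald test (-1.44, adjusted p = 0.205); the 5 CPM filter removed EGR4. The causes were not tested. Library totals in place of TMM shifted the median of all genes by -0.17 for IgM in Y691F and by -0.13 in WT. Same-numbered libraries did not deviate together (r -0.062 to 0.030 over 18 pairs, 3 of them best with their own number). Counting error makes up much of each deviation, so this check cannot exclude that the numbers pair the libraries. With the replicate block EGR1 in Y691F against WT with IgM was -1.10, the NAB1 difference of responses was -0.23 (adjusted p = 0.0756), and no call of a member changed. EGR4 counts of 0 to 24 per library limit what can be said of it.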
